A study of Mus musculus with 4 samples.

Results

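The 50 genes described here act in G2 phase and mitosis, and they were chosen by name: each is a listed gene symbol whose mean normalized count was above 0. All 50 were found among the 24421 genes of the deposited table, of which 17044 had a mean above 0. The table comes from bulk RNA-seq of bulge hair follicle stem cells (HF-SCs) that were purified by flow cytometry from mouse back skin on DAPI exclusion, absence of Sca1 and high H2BGFP, α6 and CD34. There were 2 control and 2 miR-205-induced libraries, all at postnatal day 44. The induced mice carried Krt14-rtTA, a doxycycline-responsive activator made in keratin 14-positive epithelial cells, together with pTRE2-miR-205. All groups carried Krt14-H2b-GFP, which marks the nuclei of the sorted cells, and the strain label was C57BL/6 although the transgene was made in FVB mice. Doxycycline chow was given from day 42, so induction lasted 2 d. The labels call the controls untreated, whereas the study's methods have both genotypes on doxycycline. Nothing in the labels ties a library to an individual animal beyond its replicate number.

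A cell that leaves S phase builds up cyclin A and B, which activate the kinase CDK1 once CDC25 phosphatases remove its inhibitory phosphates. Condensins then compact the chromosomes, kinetochores and kinesins attach them to the spindle, and the spindle checkpoint holds back the anaphase-promoting complex until every chromosome is attached. Most of these genes are transcribed together late in the cycle and are kept low in resting cells by the DREAM complex, which binds the CHR element of their promoters. At the age sampled, back skin is in telogen, the resting phase of the hair cycle, in which bulge HF-SCs divide rarely.

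The only value in the table that belongs to no comparison is the mean normalized count over the 4 libraries, which the authors made by dividing each library's count by its size factor and averaging. The mean was deposited with 15 significant digits, and it is a fixed sum of 4 whole read counts, so the counts behind it could be solved. Of 15018 genes with a mean of up to 1200, 14591 (97.2%) were met by exactly 1 set of 4 counts. This held for 49 of the 50 mitosis and G2/M genes. Smc4, at a mean of 1113, was met by 7 sets, so it is given by its mean alone. The 4 libraries are called A, B, C and D from the deepest to the shallowest, with size factors of 1.24, 1.18, 0.966 and 0.716. A solved count carries no sample label, so no library was assigned to the control or the induced group, and no difference between the groups is given. The values below describe 4 libraries one by one, with no test. Intervals are 95% exact Poisson intervals of the read count and cover counting error only. In bulk RNA, fewer cycling cells and less RNA per cell cannot be told apart.

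The surface markers of the sort were abundant, with means of 14575 for Cd34 and 12910 for Itga6, which encodes α6. The basal and bulge keratins Krt5, Krt15 and Krt14 had means of 146090, 119883 and 90971. Markers of other cells were also present, with means of 5186 for the fibroblast gene Col1a1, 7246 for the suprabasal keratin Krt10, 3085 for the sebaceous gene Scd1 and 2744 for the antigen-presentation gene Cd74. The sums of all solved genes were close in the 4 libraries after division by size factor, from 2668096 in D to 2697035 in A.

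The promoters are shown first, because the CHR is an element through which many genes of this class are known to be controlled. RefSeq promoters on GRCm38.p6, each running from 250 bases before to 50 after the start, were matched by symbol for 41 of the 50 genes. Ccna2, Cdc25c, Foxm1, Aurkb, Spc24, Incenp, Kif20a, Tpx2 and Smc4 were not matched. The letters TTTGAA, the core of the CHR, were searched on both strands, so a match on the opposite strand appears as TTCAAA. They were found in 31 of 41 genes (75.6%), against 20.2% of all 27025 genes with a promoter in the table. Within 100 bases before to 50 after the start they were found in 29 of 41 (70.7%), against 9.23% of all. The letters CCAAT, which do not overlap the CHR letters and are bound by NF-Y, were found in 31 of 41 (75.6%) against 41.1%. Both a CHR match near the start and a CCAAT match were found in 25 of 41 (61.0%), against 3.65% of all, and this pairing was counted after the single shares had been seen. A match is a run of letters and not a measured binding site. Ccnb1, Cdc25b, Bub1 and Birc5, which are described in full below, had a matched promoter without the CHR letters. The following 30-base windows are those of the other genes described in full for which a promoter was matched. They run 5′ to 3′ on the strand of the gene, with every match in the window in capitals.

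Cdk1, chr10:69352910-69352939, minus strand: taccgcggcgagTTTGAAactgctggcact
Bub1b, chr2:118598231-118598260, plus strand: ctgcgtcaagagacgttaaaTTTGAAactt
Bub3, chr7:131560315-131560344, plus strand: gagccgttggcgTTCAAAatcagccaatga
Ube2c, chr2:164769888-164769917, plus strand: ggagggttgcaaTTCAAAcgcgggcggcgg
Cenpa, chr5:30666890-30666919, plus strand: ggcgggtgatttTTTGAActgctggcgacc
Spc25, chr2:69206172-69206201, minus strand: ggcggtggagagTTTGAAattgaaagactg
Kif11, chr19:37376351-37376380, plus strand: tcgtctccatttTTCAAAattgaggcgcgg
Kif18b, chr11:102925104-102925133, minus strand: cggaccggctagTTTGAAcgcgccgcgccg
Anln, chr9:22389168-22389197, minus strand: ggggcgctgaaaTTCAAAtTTTGAAcggcc
Hmmr, chr11:40733412-40733441, minus strand: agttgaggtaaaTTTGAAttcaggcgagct
Mki67, chr7:135716460-135716489, minus strand: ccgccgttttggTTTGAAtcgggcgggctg
Top2a, chr11:99024195-99024224, minus strand: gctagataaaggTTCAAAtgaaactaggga
Ncapg, chr5:45669883-45669912, plus strand: ccgcgatagttgTTTGAAaactctggcgct

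The matches gathered at the start site. In the 44 promoters of these genes, some genes having more than 1 start, the 25 bases from the start onwards held 15 CHR matches (34.1 per 100 promoters), while the same bases of all 32851 promoters held 1.31 per 100. CCAAT matches lay further upstream, with 15 among the 44 promoters in the bin from 75 to 50 bases before the start (34.1 per 100 against 7.20 per 100). The bin that holds most CHR matches thus lies downstream of the bin that holds most CCAAT matches.

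**Figure D1:**
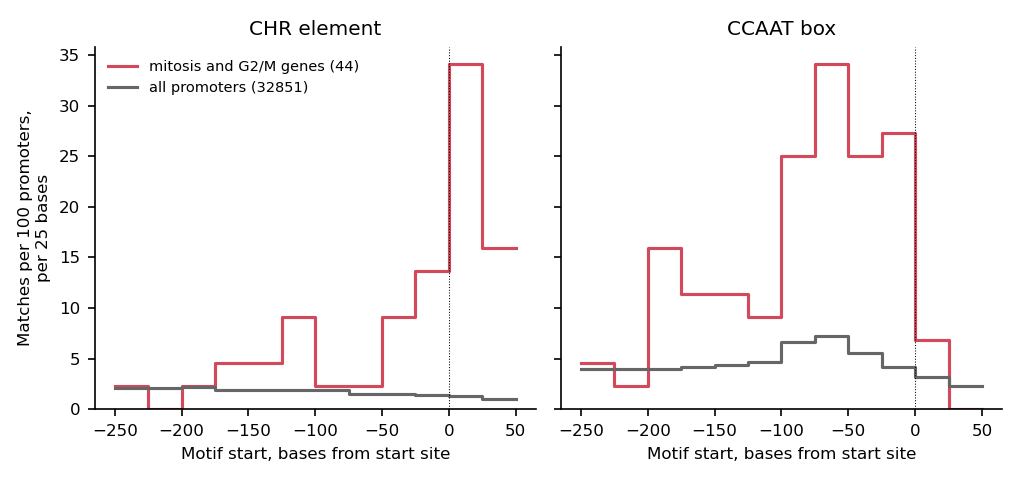
Matches of the CHR letters (left) and of CCAAT (right) per 100 promoters in bins of 25 bases, by distance in bases from the start site, for the 44 promoters of mitosis and G2/M genes and for all 32851 promoters. The CHR line of the mitosis and G2/M genes is highest just after the start, at 34.1, and their CCAAT line is highest between 75 and 50 bases before it, at 34.1.

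Mature miR-205-5p is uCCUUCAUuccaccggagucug (RefSeq, GRCm38.p6, chr1:193507503-193507524, minus strand), with the seed, bases 2 to 8, in capitals. Its site, ATGAAGG, was present in the longest annotated 3′UTR of 4 of the 50 genes (8.0%), namely Cenpf, Birc5, Hmmr and Smc4, against 11.8% of 14417 genes with a mean above 0. The median 3′UTR was 807 bases long for these genes and 1097 for all.

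The mitosis and G2/M genes were measured in every case, mostly at modest levels. Their median mean normalized count was 62.3, which lies at percentile 41.9 of all genes with a mean above 0, at 4.22 among genes with a mean above 50 and at 59.4 among all listed genes. Of the set, 19 of the 50 had a mean under 50. The lowest mean was 9.46, for Cdc25c, and the highest was 1113, for Smc4. Per kb of exon, the scale used here for comparing genes, the median level was 16.3, against 40.8 over all genes with a mean above 0 and an exon length. By the same measure the median was 13.0 for 46 other G2/M genes, 46.7 for 26 replication and S-phase genes, 47.2 for 14 genes of DREAM and MuvB subunits and E2F factors, 82.9 for 13 subunits of the anaphase-promoting complex and its partners, and 158 for 16 G1 cyclins, CDKs and inhibitors. The genes that carry out mitosis were thus listed at lower levels per kb than those of the G1 machinery.

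Levels differed by role. Chromosome structure genes had the highest median level per kb, at 47.5, and within this role Smc4, a core ATPase of both condensins, stood at 221 and Ncapg, a condensin I subunit, at 6.39. Spindle checkpoint and anaphase genes followed with a median of 40.6. The lowest medians were those of kinetochore genes at 9.04 and of kinesins at 9.28. The 4 highest genes of all by level per kb were Smc4 at 221, Bub3 at 179, Cdc25b at 173 and Pttg1 at 103. The fifth, Ncapd2, stood at 59.1. The lowest were Kif18b at 4.82 and Cdc25c at 4.87. Securin, the product of Pttg1, holds separase inactive until anaphase, and CDC25B is one of the phosphatases that activate CDK1.

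**Figure D2:**
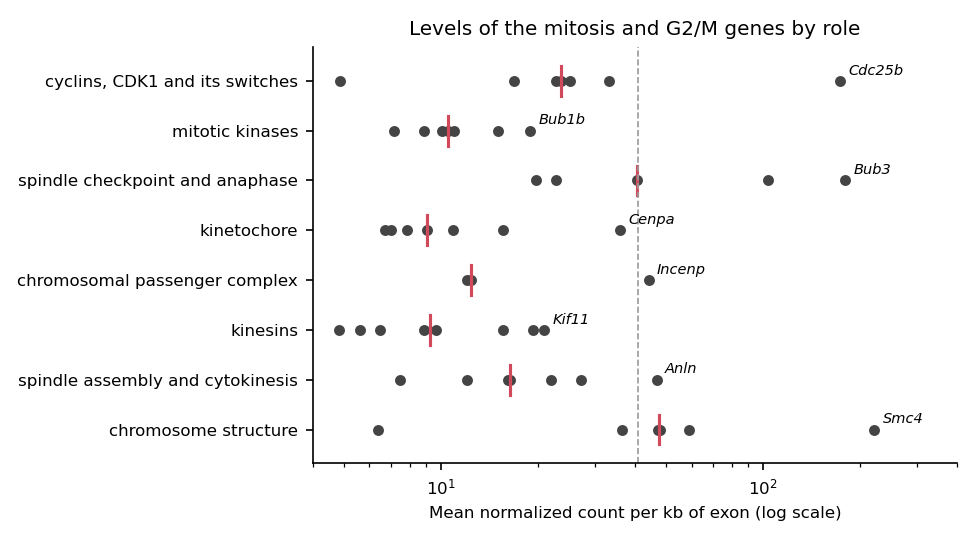
Mean normalized count per kb of exon (log scale) for the 50 mitosis and G2/M genes, by role, with 1 point per gene, a red bar at the median of each role and a dashed line at 40.8, the median of all genes. The highest gene of each role is named, and Smc4, Bub3, Cdc25b and Pttg1 lie above 100.

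The 4 libraries did not hold these genes equally. Of the 49 solved genes, 45 were highest in library B, 1 in A, 3 in C and 0 in D. Over all 11974 solved genes with at least 10 reads, 28.4% were highest in B, 22.3% in A, 28.3% in C and 21.0% in D. At the other end, 39 of the 49 were lowest in A, 1 in B, 4 in C and 5 in D, where all genes gave 29.6%, 20.2%, 22.4% and 27.7%. Library B was first and library A last for 37 of the 49, and for 11.4% of all genes. The highest library exceeded the lowest by a median of 2.66-fold for these genes and 1.44-fold for all. On the log2 scale with a pseudocount of 0.5 the median for these genes was 1.40, and it was 0.78 without library A and 0.72 without library B. Leaving out a library cannot raise this value, which was 0.55 for all genes with all 4 libraries. A and B are the 2 deepest libraries, with 1.73 and 1.65 times the depth of D. A relation of these levels to depth was not tested.

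Set against the deposited mean of each gene, the median ratio was 0.607 in A, 1.51 in B, 0.925 in C and 0.917 in D. For all genes these medians were 0.970, 1.01, 1.01 and 0.977. The interval of library B lay wholly above those of the other 3 libraries for 14 of the 49 genes, against 1.74% of all genes, and no gene of the set did so in A, C or D, where 2.85%, 2.2% and 0.735% of all genes did. The interval of library A lay wholly below the others for 11 of the 49, against 1.86% of all, and no gene of the set did so in B, C or D, where the shares were 0.96%, 1.29% and 1.19%. Spread grows as counts fall, so all genes were also placed in bins of mean count. In B, 30 of the 49 lay above the 95th percentile of the genes in their own bin, and in A, 24 lay below the 5th percentile.

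**Figure D3:**
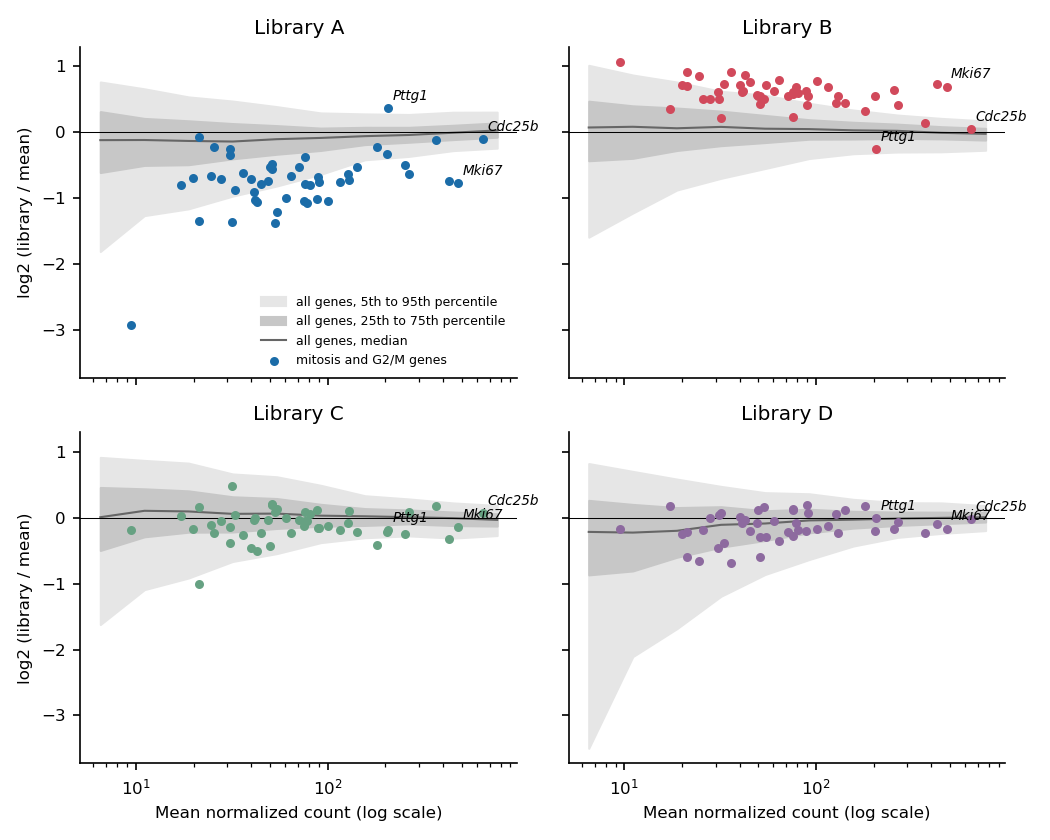
log2 of each library's normalized count over the deposited mean, with a pseudocount of 0.5, against the mean normalized count (log scale), 1 panel per library; points are the 49 solved mitosis and G2/M genes and grey bands the percentiles of all genes in the same bin of mean count. In library B 30 points lie above the upper band, in library A 24 lie below the lower band, and in C and D most lie within the bands.

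Mki67, which encodes the Ki-67 protein that coats mitotic chromosomes and is largely absent from resting cells, had 348, 920, 422 and 307 reads in A, B, C and D, or normalized counts of 281, 780, 437 and 429. The interval of B ran from 731 to 833, and the highest bound among the other libraries was 480, in C. Top2a, the topoisomerase that untangles sister chromatids, had normalized counts of 257, 713, 343 and 402. For both genes B was the highest and A the lowest, each outside the intervals of the remaining libraries, while C and D lay between. Ncapg had normalized counts of 25.9, 77.2, 38.3 and 39.1, the same order from 28 to 91 reads per library. All 5 solved chromosome structure genes were highest in B with an interval above the other 3 libraries, a share that no other role reached.

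Among the cyclins, CDK1 and its switches, 6 of 7 genes were highest in B. Cdk1, the kinase that drives entry into mitosis, had normalized counts of 37.2, 127, 75.5 and 74.0, with an interval of 108 to 149 in B and of 27.2 to 49.6 in A. Ccnb1, the cyclin B1 that activates it, had 49.3, 105, 69.3 and 61.4. The interval of B for Ccnb1 began at 87.5 and that of C ended at 88.1, so those 2 libraries overlapped. Foxm1, a transcription factor of the G2/M programme, had 78.4, 190, 140 and 110. Its interval in B, from 166 to 217, just cleared that of C, which ended at 165. Cdc25c, a phosphatase that activates CDK1, rested on 1, 24, 8 and 6 reads, and its interval in B overlapped those of C and D. Cdc25b, the other phosphatase of this kind in the set, was nearly level at 602, 668, 678 and 635, with intervals that all overlapped. It was highest in C.

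Of the 7 mitotic kinases 6 were highest in B. Bub1b, a checkpoint kinase-like protein and the highest of the role per kb, had normalized counts of 46.1, 122, 83.8 and 71.2. Bub1, the lowest per kb, had 24.3, 44.1, 23.8 and 32.1. Ttk, which starts the checkpoint signal at kinetochores, was highest in C at 44.5 and had 37.3 in B and 12.1 in A. Aurka, the kinase of the spindle poles, had only 16 to 43 reads per library and was lowest in C. None of the 7 had an interval in B above all the other libraries, and their means ran from 25.6 to 80.8.

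The spindle checkpoint and anaphase genes were the role in which the libraries differed least, with 3 of 5 highest in B and a median ratio of B to the mean of 1.36. Ube2c, the ubiquitin-conjugating enzyme of the anaphase-promoting complex, had normalized counts of 34.8, 69.6, 59.0 and 41.9. Bub3, a checkpoint protein, had 340, 405, 415 and 314 and was highest in C. Pttg1 ran the other way, at 268 in A, 173 in B, 181 in C and 205.2 in D. Its interval in A, from 240 to 298, lay above those of B and C and met that of D, which ended at 241. Bub3, Cdc25b and Pttg1, 3 of the 4 genes not highest in B, are also the 3 highest solved genes per kb.

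Kinetochore genes, chromosomal passenger genes, kinesins and the genes of spindle assembly and cytokinesis were highest in B without exception, in 7, 3, 8 and 7 genes. Cenpa, the histone H3 variant of centromeres, had normalized counts of 53.4, 132, 80.7 and 94.9. Spc25, a subunit of the NDC80 complex that holds microtubules, had 20.2, 40.7, 10.3 and 14.0, and here C rather than A was the lowest. Incenp, the scaffold of the chromosomal passenger complex, had 98.7, 194, 122 and 155, and Birc5, its survivin subunit, had 21.8, 63.6, 40.4 and 39.1.

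Kif11, the kinesin that pushes spindle poles apart, had normalized counts of 48.5, 173, 92.1 and 89.3. Kif18b, which works at microtubule ends, had 9.70, 22.1, 17.6 and 19.5 and the lowest level per kb of the set. Its 12 to 26 reads per library gave intervals that all overlapped. Kinesins had the lowest median ratio in A, at 0.489. Anln, the anillin of the contractile ring, had 180, 395, 214 and 226, and Hmmr, a spindle-associated protein, had 20.2, 64.5, 41.4 and 40.5. In both, C and D lay close together between A and B.

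**Figure D4:**
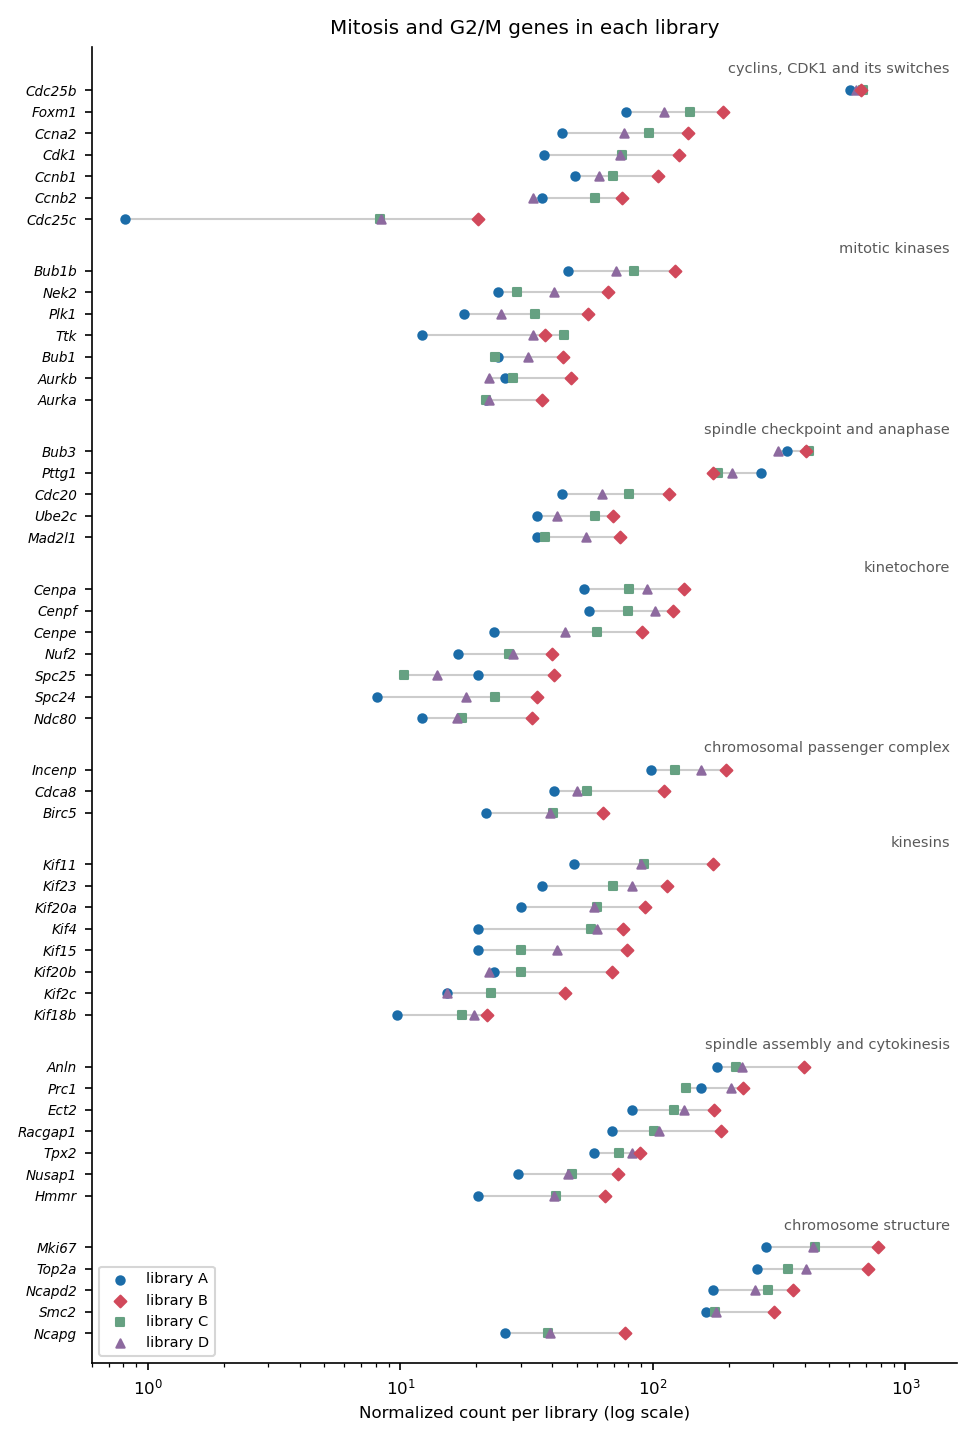
Normalized count (log scale) of each of the 49 solved mitosis and G2/M genes in the 4 libraries, grouped by role and ordered by mean, with a grey line from the lowest to the highest library. Library B is the rightmost point for 45 genes and library A the leftmost for 39, while Cdc25b and Bub3 are nearly level and Pttg1 is highest in A.

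The order of the libraries was followed across levels of expression. Of 19 genes with a mean up to 50, 18 were highest in B, and of 21 with a mean from 50 to 150, all 21 were. Of 9 solved genes with a mean from 150 to 1200, 6 were highest in B. All genes in these ranges were highest in B in 30.1%, 31.7% and 25.7%. Of the 29 genes with a CHR match near the start, 27 were highest in B with a median ratio to the mean of 1.53, and of the 12 with a promoter but no such match, 10 were, with a median ratio of 1.47.

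Other genes of the cell cycle differed less between the libraries by the median ratio to the mean. Over all genes, 28.4% were highest in B, and the median ratio of B was 1.01. Of 47 solved genes among the other G2/M genes, 31 were highest in B, with a median ratio of B to the mean of 1.30, and 29 were lowest in A. Of 25 solved replication and S-phase genes, 19 were highest in B, with a median ratio of 1.23. Of 13 solved genes of DREAM and MuvB subunits and E2F factors, 5 were highest in B, with a median ratio of 1.12. These 5 (38.5%) were E2f1, E2f2, E2f3, E2f5 and E2f8. Of the rest, E2f4 and Mybl2 were highest in C, and E2f7 and Lin9 in D. Tfdp1, Lin37, Lin52 and Lin54 were highest in A, and Rbbp4 was not solved. Of 10 solved G1 genes 3 were highest in B, and of 10 solved genes of the anaphase-promoting complex 2 were, with median ratios of 1.02 and 1.03. None of these differences between lists was tested.

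**Figure D5:**
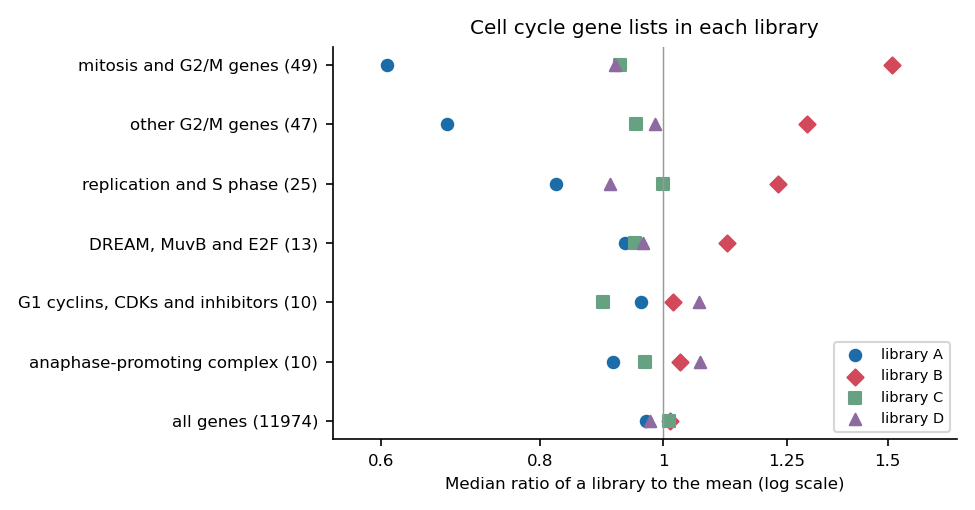
Median over each list of the ratio of a library's normalized count to the deposited mean (log scale), with the number of solved genes in brackets and 1 marker per library. Libraries A and B lie furthest apart for the mitosis and G2/M genes, at 0.607 and 1.51, and all 4 libraries lie near 1 for all genes.

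Markers of other cells also varied between the libraries. The myeloid genes Lyz2, Ptprc and Csf1r had normalized counts of 234, 57.4 and 143 in A, 769, 132 and 249 in B, 523, 99.3 and 202 in C and 272, 61.4 and 97.7 in D, so B was highest for all 3, whereas Cd207, a Langerhans cell gene, was highest in C at 324 and lowest in B at 189. The melanocyte genes Dct and Pmel were highest in C, at 1041 and 461, and had 394 and 146 in B. Both smooth muscle genes were highest in B, with 43.7, 86.5, 58.0 and 25.1 for Acta2 and 47.7, 65.3, 38.3 and 26.5 for Myh11. Of the T cell genes, Cd3e was lowest in B, at 9.70, 3.39, 12.4 and 12.6, Cd3g was highest in B, at 2.43, 9.33, 2.07 and 5.58, and Trdc was not listed. Of the follicle markers low enough to be solved, Tcf7l1 had 518, 569, 604 and 670 and Fgf18 had 198, 103, 124 and 109. Whether other cells contributed to the levels of the mitosis and G2/M genes was not tested.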

How the data were processed

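HF-SC RNA was sequenced from 4 libraries. Per the study's methods and the submitters' processing notes, 150-nt paired-end reads were aligned to mm10 (written NCBI37/mm10 in the methods) with HISAT2 2.1.0, converted with SAMtools 1.3.1 and counted per gene with HTSeq, and the groups were compared with DESeq2 at default settings. The annotation, the strand setting and the versions of HTSeq and DESeq2 that the authors used were not given in those sources. The deposited signal used here is the mean normalized count, which the authors averaged over all 4 libraries. The 5 columns of the authors' comparison (fold change, its error, statistic and p-values) were not used, and 0 columns hold values of single samples.

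Each mean was written as a sum of 4 whole counts, each times the value of 1 read. Those 4 values were fitted on 6702 genes, and count sets within 4 units of the last deposited digit were accepted. All 8171 genes with a mean up to 100 and all 5463 from 100 to 700 had 1 solution, with residuals up to 0.888 units. After a shift of 1000 units, 0 of 8171 means up to 100 and 2.47% of means from 100 to 700 had a solution. From 700 to 1200, 957 of 1384 genes had 1 solution, and 93.3% of the shifted means had a solution. Recovery is thus less secure in that range, whose solved genes are counted in the shares of all genes. On simulated data with 2921 genes, 98.8% were solved once and 100% of these were right. The simulated levels were drawn only from genes with 1 solution. The 427 genes with several solutions were left out, so the simulation was easier than the data. The solved genes held 1912745 to 3337862 reads per library, which is not the full depth because abundant genes could not be solved.

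Exon lengths and 3′UTRs came from GENCODE vM1 (NCBIM37), and promoter and miRNA sequences from RefSeq (GRCm38.p6). Every gene of the set could be named, and those described in full were Mki67, Top2a, Cdk1, Ccnb1, Foxm1 and the highest and lowest of each of 8 roles per kb. Ttk, Aurka, Pttg1 and Ncapd2 were named after their values were seen, as were single markers and single genes of the other lists. The genes, roles and lists were chosen with earlier results of these data known. Bins, intervals and the miRNA site count were also chosen with values known. Alternatives were other backgrounds, lengths, count minimums, pseudocounts, tolerances, promoter windows and each library left out. The work used numba 0.67.0, matplotlib 3.10.9, scipy 1.17.1, pandas 2.3.3, numpy 2.4.6 and Python 3.11.15.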

Additional observations from a re-analysis of the deposited data

How the results depend on the processing

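Of 21 alternatives to the 5 summary values, 16 were classed as leaving the value the same and 5 as moving it. Of 41 genes with a promoter, 31 held the CHR letters on either strand and 24 on the coding strand, an alternative classed as the same. The median percentile of the mean of the mitosis and G2/M genes, 41.9 among genes with a mean above 0, was 4.22 among genes with a mean above 50 and 59.4 among all listed genes. Their median level per kb of exon, 16.3, was 36.7 per kb of coding sequence. Leaving out each library in turn gave a median log2 of the highest over the lowest library between 0.72 and 1.40, against 1.40 with all 4. Leaving out a library cannot raise this value, and no such value is given for all genes. It was 0.78 without library A and 0.72 without library B. Library B was the highest for 45 to 48 of the 49 genes when A, C or D was left out. A gene highest in B stays so when another library is removed, so this count could not fall. It does not check the order of the libraries, although these alternatives are among those classed as the same. No paired analysis was possible because the deposited mean carries no replicate number. No library was placed in a group, since no label ties a solved count to a sample. The columns of the authors' comparison were left unused. Low counts limit single genes, since 19 of the 50 had a mean under 50.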

Other observations

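The libraries could not be placed in a group, so their summed levels are given as values only. The normalized counts of the 49 solved mitosis and G2/M genes summed to 3789 in library A, 7540 in B, 5072 in C and 5016 in D. C and D lay close together, with A below and B above them. Which of the 4 libraries belong to the same group is not known. The 25 solved genes of 26 in replication and S phase summed to 4288, 6489, 5291 and 4633, without Pcna, whose mean of 3116 was not solved. The 10 solved genes of 16 among the G1 cyclins, CDKs and inhibitors summed to 3760, 3589, 3381 and 3895. That sum leaves out the abundant Cdkn1a (mean 8004), Ccnd1, Ccnd2, Ccnd3 and Cdk4, so the order of the whole list is not known. The 4 melanocyte markers summed to 830, 668, 1949 and 335, and the 4 solved of 5 myeloid markers summed to 690, 1339, 1148 and 637. The 2 smooth muscle markers summed to 91.4, 152, 96.2 and 51.7. The part of these cells in the levels of the mitosis and G2/M genes was not tested.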
